A study of Mus musculus with 30 samples.

Results

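The interferon-stimulated genes described here are 38 genes chosen by symbol out of 21652 genes in a count table from mouse adipose tissue. All 38 were found, and all 38 passed the filter on low counts in each fit reported here, unless a smaller number is given. Polyadenylated RNA was sequenced from inguinal white adipose tissue (iWAT, a subcutaneous depot) and brown adipose tissue (BAT, the thermogenic fat) of male C57BL/6J mice aged 7 to 8 weeks, for which the labels give no altered allele and no agent. Each tissue was taken at 22 °C, after 6 h at 6 °C or after 24 h at 6 °C, with 5 libraries in each of the 6 groups and 30 in all. The mice were kept 5 to a cage on a 12 h light cycle in a room described as 24 ± 2 °C, so the 22 °C group lies at the lower end of that range. The labels do not say whether the 5 libraries of a group came from separate mice or cages, nor whether libraries of the same number in iWAT and BAT came from the same mouse, so p-values measure the spread between these libraries only. The comparisons ask how acute cold changed these genes in each depot, whether the depots responded alike, and which differences rested on single libraries.

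Interferons are secreted signals of infection and inflammation. Type I and type III interferons act through receptors whose kinases activate a transcription factor complex that includes STAT2 and IRF9 and binds the interferon-stimulated response element (ISRE). Interferon gamma, the type II interferon, acts on genes that carry the gamma-activated sequence (GAS). The products of the induced genes bind foreign RNA, modify proteins with the ubiquitin-like ISG15, coat vacuoles and virions, and feed back on the pathway. In adipose tissue, macrophages, other immune cells, stromal cells and adipocytes can all express them, and in bulk tissue fewer cells of a type and less RNA per cell cannot be told apart.

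Promoter windows of 10 members are printed because these genes stood furthest apart in a single library, passed a test in BAT after 24 h, or are copies that may share reads. The sequences are RefSeq promoters of mouse build GRCm38.p6, read 5′ to 3′ on the gene's strand, with capitals marking matches to the ISRE core (GAAA, any 2 bases, GAAA, read on either strand) and to GAS (TTCNNNGAA, where N is any base). The first 5, genes of guanylate-binding proteins, immunity-related GTPases and tetherin, are among the 7 members with the highest fold in BAT 24 h replicate 4.
Igtp: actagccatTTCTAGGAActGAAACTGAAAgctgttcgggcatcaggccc
Irgm1: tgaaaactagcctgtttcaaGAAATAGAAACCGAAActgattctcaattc
Gbp2: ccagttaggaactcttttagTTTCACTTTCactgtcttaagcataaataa
Gbp3: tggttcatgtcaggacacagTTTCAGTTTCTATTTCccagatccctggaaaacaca
Bst2: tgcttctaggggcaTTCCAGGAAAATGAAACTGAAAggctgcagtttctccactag
The next 3 belong to members that passed the test in BAT after 24 h.
Isg15: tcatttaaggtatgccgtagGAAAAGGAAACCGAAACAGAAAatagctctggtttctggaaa
Ifit1: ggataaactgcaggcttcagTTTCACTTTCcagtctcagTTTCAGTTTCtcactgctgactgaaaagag
Oas1a: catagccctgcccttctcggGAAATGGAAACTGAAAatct
The last pair shows identical windows of near-identical copies, between which reads may have been split.
Ifit3: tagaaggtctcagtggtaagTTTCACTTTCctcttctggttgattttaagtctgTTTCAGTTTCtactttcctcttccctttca
Ifit3b: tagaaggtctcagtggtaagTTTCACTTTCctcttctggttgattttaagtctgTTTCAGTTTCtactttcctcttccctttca
The windows lie on the forward strand at chr11:58199502-58199551 (Igtp), chr3:142620584-142620633 (Gbp2), chr3:142559979-142560034 (Gbp3), chr19:34640765-34640833 (Ifit1), chr19:34583353-34583436 (Ifit3) and chr19:34607749-34607832 (Ifit3b). On the reverse strand they lie at chr11:48871421-48871470 (Irgm1), chr8:71537567-71537622 (Bst2), chr4:156200855-156200916 (Isg15) and chr5:120907526-120907565 (Oas1a). Each window lies wholly upstream of the annotated start of its gene. In Bst2 and Igtp a GAS match sits beside the ISRE core, and in Bst2 the matches overlap. Oas1a, the third member with both motifs, has its GAS match outside the printed window.

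RefSeq promoters were matched for 29 of the 38 members. Within 250 bases upstream of the start and on either strand, the ISRE core was present in 14 of 29 (48.3%), against 936 of 27025 genes (3.46%). GAS was present in 5 of 29 (17.2%) against 8.13% of all genes, and 3 of 29 (10.3%) held both against 0.459%. The 14 members with the ISRE core include Gbp2, Oas3, Rsad2, Stat2 and Trim30a. A match is a description of letters in this window and was not tested for binding.

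Library totals ranged from 25.35 to 40.99 M counts. Summed brown adipocyte markers, Ucp1 among them, lay between 13330 and 27490 CPM (counts scaled to library size) in the BAT libraries and between 169 and 6086 CPM in the iWAT libraries, and summed adipocyte markers between 16290 and 33050 CPM over both, so the depots carried the markers of their labels. Skeletal muscle markers summed to 3564 CPM in iWAT 22 °C replicate 2 against 2.93 to 7.88 CPM in the other 4, and ranged from 2.19 to 9169 CPM in BAT. No pair of libraries within a group agreed within sampling noise.

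A pair of libraries stood apart from their groups before any comparison. Averaged over 37 members, all but the low Oas3, the mean log2(CPM + 1) was 4.71 in BAT 24 h replicate 4 against 2.97 to 3.21 in the other 4 BAT libraries at 24 h. In iWAT 24 h replicate 4 it was 4.74 against 3.52 to 4.02. The remaining groups spanned 4.09 to 4.39 in iWAT at 22 °C, 3.76 to 4.26 in iWAT at 6 h, 2.98 to 3.11 in BAT at 22 °C and 2.71 to 3.05 in BAT at 6 h. Counts of members and of gene lists at 24 h are therefore given below with and without the library numbered 4.

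**Figure D1:**
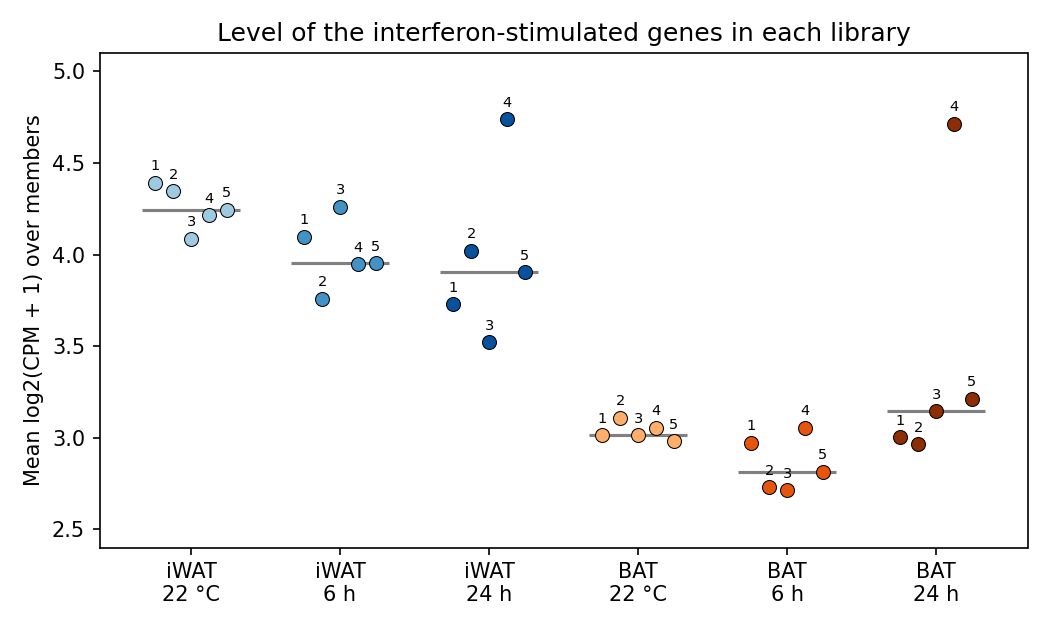
Mean log2(CPM + 1) over 37 members (y axis) in each of the 30 libraries, grouped by tissue and condition (x axis); each point is 1 library with its replicate number and the grey line is the group median. BAT 24 h replicate 4 (4.71) and iWAT 24 h replicate 4 (4.74) lie above the other 4 libraries of their groups, and iWAT lies above BAT at 22 °C.

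BAT held less of these transcripts than iWAT. At 22 °C, 35 of 38 members were lower in BAT and 0 higher by edgeR's quasi-likelihood test with Benjamini-Hochberg adjustment over all genes, where 34.5% of 14089 genes were lower and 32.4% higher, 66.9% in either direction, so the lower share of the members was well above that of all genes. The median log2 fold change of the members was -1.421, against -0.043 over all genes. The libraries of the depots did not overlap for 37 members, all lower in BAT (26.6% of all genes were lower without overlap), and the exception was Rsad2 (viperin, an antiviral radical SAM enzyme), at 0.18 ± 0.28 (SE, log2). By role, 3 of 3 transcription factors, 10 of 10 RNA-binding and degrading proteins, 3 of 3 nucleic acid sensors, 2 of 2 Mx proteins, 7 of 7 ubiquitin-like modification genes, 4 of 5 GTPases and 6 of 8 other effectors were lower.

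Zbp1, a sensor of Z-form nucleic acids, differed most, at 11.1, 11.6, 8.35, 11.3 and 8.26 CPM in the iWAT libraries and 1.22, 1.14, 1.8, 1.08 and 1.05 CPM in the BAT libraries at 22 °C. Every iWAT value lay over every BAT value, and the log2 difference was -2.995 ± 0.60 (edgeR adjusted p = 8.41e-05). Irf7, the transcription factor that amplifies type I interferon production, was at 38.1, 31.5, 29.8, 34.6 and 37.2 CPM in iWAT and 7.19, 6.07, 5.83, 6.47 and 6.26 CPM in BAT, a log2 difference of -2.43 ± 0.34 (edgeR adjusted p = 3.74e-07). Among the other members with the largest differences, log2 values were -2.47 for Oas3, -2.26 for Oas1a and -1.97 for Oasl2 of the oligoadenylate synthetase family, -2.32 for Mx1, and -2.26 and -2.20 for the RNA-binding Ifit3 and Ifit3b. Just inside the threshold stood Bst2 (tetherin) and Irgm1, a GTPase of autophagy and vacuole defence, at edgeR adjusted p = 0.0388 and 0.0454. Just outside stood Ifi44 and Igtp at edgeR adjusted p = 0.0600 and 0.0921. Igtp was nevertheless at 23.3 to 49.6 CPM in iWAT and 14.3 to 17.8 CPM in BAT at 22 °C, without overlap. In the depot fits the spread is shared by all 30 libraries, the 24 h libraries numbered 4 included. The 24 h libraries were not left out for the comparison at 22 °C. Bst2 and Irgm1 lost the call together without iWAT replicate 1 or 4 or any of the BAT replicates, Irgm1 alone without iWAT replicate 2 or 5, and Gbp3 and Isg15 also without BAT replicate 1.

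Per length, in the FPKM that the authors deposited, the order of members was led by Bst2 in both depots, with a median of 50.9 FPKM in iWAT and 16.8 FPKM in BAT at 22 °C. Gbp2, a guanylate-binding protein that attacks pathogen vacuoles, followed at 39.5 FPKM in iWAT and 9.08 FPKM in BAT. The ranges of these genes overlapped within iWAT (40.2 to 63.9 and 34.04 to 45.8 FPKM), so their order there is not beyond the spread of libraries. Oas3 was lowest in both, at 0.307 FPKM in iWAT and 0.0292 FPKM in BAT. By median CPM, 33 of 38 members were highest in iWAT at 22 °C among the 6 groups, 3 in iWAT at 6 h and 2 in BAT at 24 h, and 27 were lowest in BAT at 6 h, 10 in BAT at 22 °C and 1 in BAT at 24 h.

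Markers of some immune and stromal cell types were lower in BAT, while those of others were not or went both ways. Of all genes, 34.5% were lower and 32.4% higher in the same comparison. At 22 °C, 11 of 12 macrophage markers, 7 of 7 natural killer cell markers, 8 of 9 adipose progenitor markers and 14 of 16 genes of MHC class I presentation were lower in BAT. The summed macrophage markers lay between 341 and 888 CPM in iWAT and between 181 and 288 CPM in BAT, and none of the 12 was at 0 in every library. MHC class II had 7 of 7 genes lower, and proliferation markers 6 of 7. Of the other cell types, 3 of 5 plasmacytoid dendritic cell, 3 of 7 dendritic cell, 2 of 8 T cell, 2 of 2 neutrophil and 0 of 6 B cell markers tested were lower, and 1 dendritic cell marker was higher. Summed natural killer cell markers were 1.37 to 2.42 CPM in BAT and 6.58 to 9.55 CPM in iWAT. Summed neutrophil markers were 0.0813 to 0.776 CPM in BAT and 1.05 to 1.67 CPM in iWAT. Markers this low in BAT can pass the filter through iWAT alone, so their lower calls are not independent of the filter. Lymph node stroma markers had 1 of 2 lower, endothelial markers 4 higher and 3 lower of 10, adipocyte markers 2 higher and 6 lower of 8, brown adipocyte markers 9 of 10 higher and skeletal muscle markers 2 of 9 higher. The part of these cell types in the depot difference was not tested.

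The depots were also compared in the cold. After 6 h, 32 of 38 members were lower in BAT and 0 higher (33.7% of all genes lower, 32.6% higher, 66.2% in either direction), with a median log2 of -1.39. Zbp1 (-2.84), Irf7 (-2.70), Ifit3b (-2.66), Ifit3 (-2.44), Rtp4 (-2.01), Gbp2 (-1.92), Igtp (-1.90) and Parp9 (-1.85) had the largest log2 differences that passed. Irf9 and Stat2, nearest inside the threshold (edgeR adjusted p = 0.0423 and 0.0384), lost the call in turn: Irf9 without any iWAT library or BAT replicate 2, 3, 4 or 5, and Stat2 without iWAT replicate 3 or 4 or BAT replicate 1, 2, 3 or 5. Bst2, Mx1 or Ifit2 were also lost without BAT replicate 1, 2, 3 or 5. After 24 h, 14 members were lower and 2 higher in BAT (32% of all genes lower, 31.6% higher, 63.6% in either direction), so the lower share was close to that of all genes, and the median log2 was -0.488. Without BAT 24 h replicate 4, 31 were lower and 1 higher with a median of -1.057, where 8875 of 14197 genes were called in either direction. Without iWAT 24 h replicate 4, 9 were lower and 4 higher with a median of -0.151 (8565 of 14195 genes called). Without both libraries numbered 4, 28 were lower and 2 higher with a median of -0.769 (8484 of 14171 genes called). The 2 higher members were Dhx58, which encodes the RIG-I-like regulator LGP2, at 0.65 ± 0.14, and Rsad2 at 0.85 ± 0.28. The depots did not overlap for Dhx58 alone (24.8% of genes were higher without overlap), and 0 members were lower without overlap (22.2% of genes). Dhx58 and Rsad2 stayed higher without both libraries numbered 4, at 0.63 ± 0.14 and 0.50 ± 0.18, and Rsad2 lost the call where only the BAT library was left out. The largest lower differences after 24 h were in Ifit3b (-1.52), Irf7 (-1.37), Zbp1 (-1.34), Mx1 (-1.33), Ifih1 (-1.32), Ifit3 (-1.28), Parp9 (-1.10) and Oas2 (-0.99). Zbp1 lost its call without iWAT replicate 4 or 5, and Zbp1 and Xaf1 without BAT replicate 1, 2, 3 or 5. Herc6, Mx1, Trim30a and Xaf1 also lost theirs without iWAT replicate 4.

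**Figure D2:**
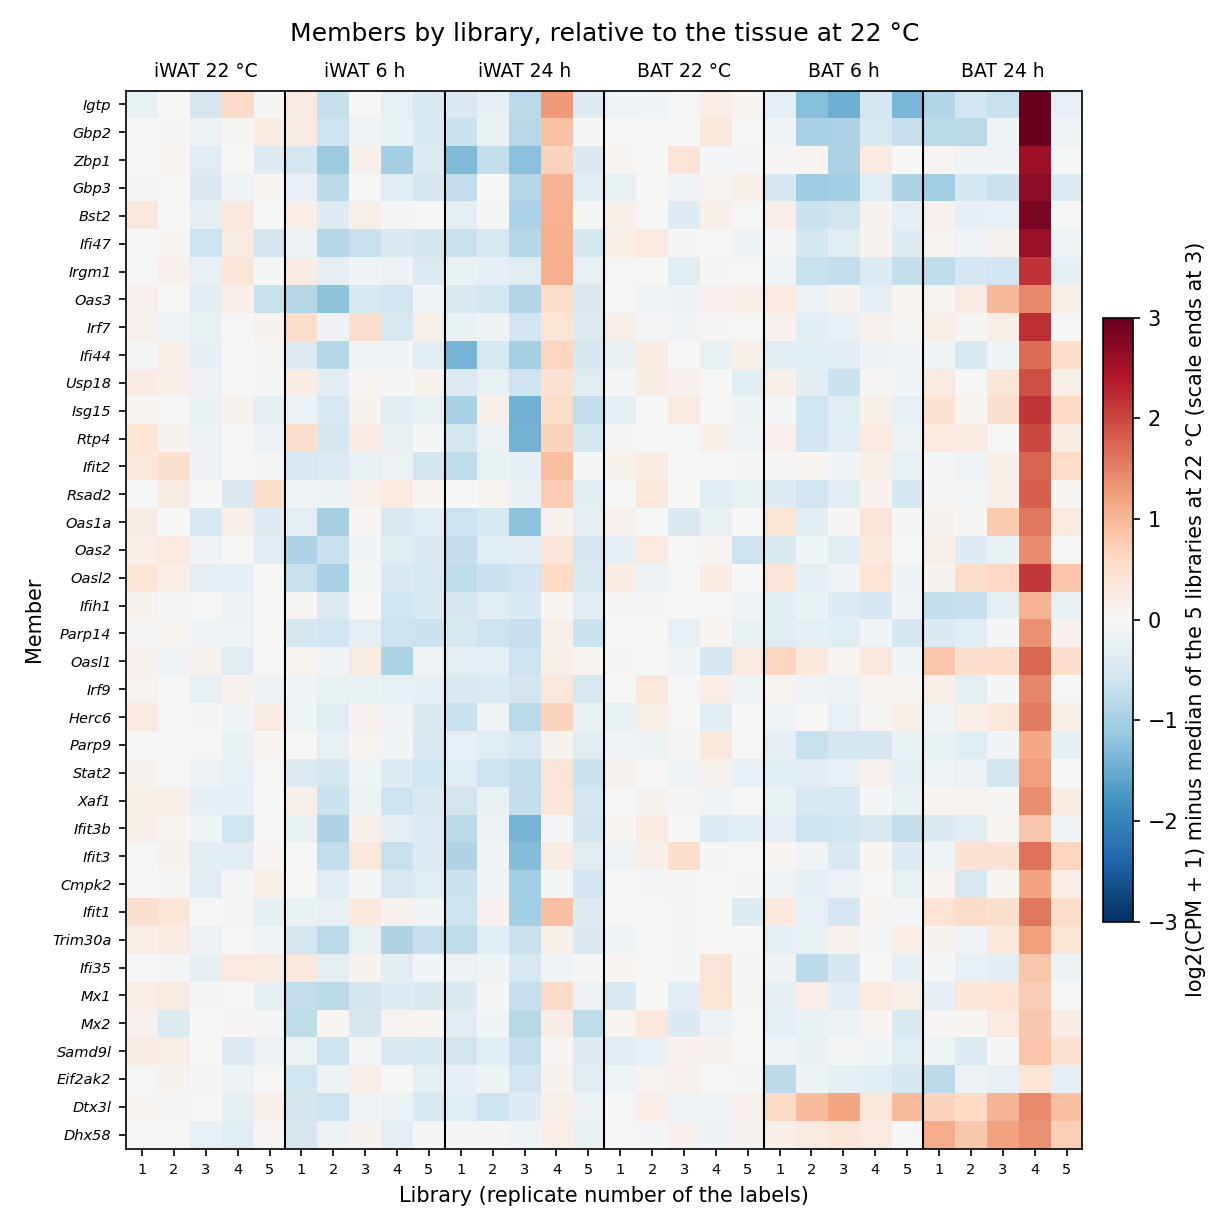
Heat map of 38 members (rows, ordered by their fold in BAT 24 h replicate 4) in 30 libraries (columns); colour is log2(CPM + 1) minus the median of the 5 libraries of the same tissue at 22 °C, red higher and blue lower, with the scale ending at 3. The BAT 24 h column numbered 4 is red in every row and the iWAT 24 h column numbered 4 in most, while Dtx3l and Dhx58 in the bottom rows are red in all 5 BAT libraries at 24 h.

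In iWAT few members passed the test after 6 h of cold. Of 38, 37 had a negative log2 change and the median was -0.255 (all genes -0.029), but 3 passed the test, all lower, where 10.1% of 13689 genes were lower and 12.9% higher, a smaller share than among all genes. Libraries did not overlap for 4 members, all lower at 6 h (4.08% of all genes were lower and 5.27% higher without overlap). Trim30a, a TRIM-family protein that restrains Toll-like receptor signalling, was at 30.7, 32, 23.5, 26.8 and 25.3 CPM at 22 °C and 18.2, 15, 23, 13.9 and 16.1 CPM at 6 h. Every 6 h library was lower than every 22 °C library, with a log2 change of -0.70 ± 0.17 (edgeR adjusted p = 0.0123). Parp14, a mono-ADP-ribosyltransferase, was at 56.9, 58.8, 52.6, 50.9 and 55.8 CPM at 22 °C and 38.9, 36.9, 46.4, 35.9 and 35.4 CPM at 6 h. These groups did not overlap either, and the log2 change was -0.53 ± 0.14 (edgeR adjusted p = 0.0177). Mx1, a gene of the dynamin-like Mx family, was at 2.93, 3.14, 2.32, 2.44 and 1.87 CPM at 22 °C and 1.05, 0.992, 1.35, 1.65 and 1.54 CPM at 6 h. All 6 h libraries were lower than all 22 °C libraries here too. Mx1 fell by 0.97 ± 0.30 on the log2 scale (edgeR adjusted p = 0.0299), from counts that were among the lowest of the list.

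Dtx3l, an E3 ubiquitin ligase, and Oas2 stood next outside the threshold (log2 -0.39 and -0.55, edgeR adjusted p = 0.0633 and 0.0730). Mx1 no longer passed when replicate 1 or replicate 2 was removed, from the 22 °C group or from the 6 h group. Without 22 °C replicate 4 the count was 5 and without 6 h replicate 3 it was 6, all lower. In the same comparison 4 of 12 macrophage markers, 5 of 10 endothelial markers and 4 of 9 progenitor markers were lower. Their median log2 changes were -0.616, -0.485 and -0.649, further from 0 than that of the members. Summed macrophage markers spanned 319 to 630 CPM at 6 h and 395 to 625 CPM at 24 h. The part of cell composition in the 3 lower members was not tested.

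After 24 h in iWAT, the result depended on replicate 4. With all libraries, 1 member (Parp14) passed, lower, against 10.1% of genes lower and 12.8% higher, again a smaller share, and the median log2 was -0.265 (all genes -0.041). The groups overlapped for all 38 members, whereas 6.25% of all genes were lower and 10.4% higher without overlap. Parp14 was at 39.9, 35.7, 34.1, 62.3 and 35.4 CPM in the libraries numbered 1 to 5, so that only the library numbered 4 reached the 22 °C values, and the log2 change was -0.42 ± 0.14 (edgeR adjusted p = 0.0418). Its call was lost on leaving out any of 22 °C replicates 1, 2, 3 and 5 or 24 h replicates 1, 2, 3 and 5. Without 22 °C replicate 4, 2 members passed. Without 24 h replicate 4, 14 members were lower, 0 higher, and the median log2 was -0.534. In that fit 2492 of 13786 genes were called in either direction, with a median over all genes of -0.044.

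Those 14 fell in 5 of the 7 roles. The transcription factors Irf9 and Stat2, the DNA-binding partners of the type I response, changed by -0.47 ± 0.09 and -0.56 ± 0.12 without that library (edgeR adjusted p = 0.00343 and 0.00686). In the ubiquitin-like group 5 of 7 were lower, Parp14 (-0.62), Trim30a (-0.62), Herc6 (-0.57, an ISG15 ligase), Usp18 (-0.53, which removes ISG15 and damps receptor signalling) and Parp9 (-0.37). The sensors Zbp1 (-0.87) and Ifih1 (-0.43, MDA5), the RNA-binding Oasl2 (-0.70) and Ifit2 (-0.50), and Ifi44 (-1.02), Cmpk2 (-0.60) and Samd9l (-0.50) were the others. None of the 5 GTPases passed, with a median of -0.409 without replicate 4 and 0.047 with it. Nearest the threshold were Zbp1 and Ifit2 inside and Oas2 outside, at edgeR adjusted p = 0.0421, 0.0461 and 0.05003.

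Between 6 h and 24 h in iWAT, 0 members passed by edgeR, DESeq2 or limma on FPKM, and 1 (Mx1) had an unadjusted p under 0.05 by edgeR. Without 24 h replicate 4 the count by edgeR was also 0. Of all genes, 0.00731% were lower and 0% higher in that comparison. Groups overlapped for all 38 members (1.03% of genes were lower and 0.745% higher without overlap). Mx1 differed by 0.78 ± 0.30 on the log2 scale (edgeR adjusted p = 0.390).

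In BAT after 6 h, a single member rose. Dtx3l, which pairs with PARP9 in DNA repair and in interferon signalling, was at 16.8, 19.5, 15.2, 15.8 and 18.4 CPM at 22 °C and 25.9, 33.3, 39.5, 21.7 and 33.5 CPM at 6 h. Every 6 h library lay higher than every 22 °C library, and the log2 change was 0.83 ± 0.17 (edgeR adjusted p = 0.00211, with 12.5% of 13090 genes higher and 10.2% lower, a larger share than 1 of 38). The call held on leaving out any of the 10 libraries compared. Dtx3l overlaps Parp9 in the RefSeq gene table and the strand of counting is not given, so reads of the pair may not be told apart; Parp9 was lower rather than higher, at 21.1, 20.5, 23.4, 29 and 22.9 CPM at 22 °C and 19, 14, 15.9, 15.8 and 19.8 CPM at 6 h (log2 -0.48 ± 0.25, edgeR adjusted p = 0.179).

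The other members leaned the opposite way in BAT at 6 h. The log2 change was negative for 29 of 38 with a median of -0.217 (all genes -0.012), and libraries did not overlap for 5 lower members (6.29% of all genes) and for 1 higher member, Dtx3l (9.76%). The 5 were Eif2ak2, Parp9, Igtp, Gbp3 and Gbp2. Eif2ak2, the RNA-activated kinase PKR, was at 14.8, 17.3, 18, 16.4 and 15.9 CPM at 22 °C and 9, 14.5, 13.3, 13 and 11 CPM at 6 h, a log2 change of -0.45 ± 0.18 (edgeR adjusted p = 0.0880). Igtp, an immunity-related GTPase, was at 14.3, 14.4, 15.4, 17.8 and 16 CPM at 22 °C and 12.6, 5.77, 4.97, 10.6 and 5.33 CPM at 6 h, and its log2 change was -1.01 ± 0.71 (edgeR adjusted p = 0.333). In this fit the spread of Igtp is shared with the 24 h group and its replicate 4. Fitted on the 2 groups compared alone, 9 members were lower and 1 higher of 37 tested, where 2937 of 12809 genes were called in either direction. With all 15 BAT libraries in the fit 0 were lower.

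After 24 h in BAT the members were higher as a whole only with replicate 4 included. With all libraries, 8 members were higher and 0 lower, where 12.8% of genes were higher and 10.4% lower, 23.1% in either direction. The members' higher share was above that of all genes, but their share in either direction was slightly below it. Of 38 log2 changes 36 were positive, with a median of 0.693 (all genes -0.009). Groups did not overlap for 4 higher and 0 lower members (11% and 7.2% of genes), so the higher share was near that of all genes. Without 24 h replicate 4, 4 were higher and 3 lower, and the median was 0.054. In that fit 2685 of 13175 genes were called in either direction, a share of all genes slightly above that of the members. The 6 h and 24 h comparisons share the 22 °C libraries. Of 12 macrophage markers, 3 were higher at 24 h with all libraries and 1 without replicate 4, and their part was not tested.

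Dhx58 and Dtx3l rose in every library. Dhx58 was at 5.4, 5.16, 5.99, 4.74 and 5.89 CPM at 22 °C, 6.12, 6.7, 7.24, 6.91 and 5.51 CPM at 6 h and 12.8, 10.2, 13.7, 15.6 and 9.59 CPM at 24 h. All 5 libraries at 24 h lay higher than all 10 others, and the log2 change against 22 °C was 1.17 ± 0.14 (edgeR adjusted p = 1.62e-05) and 1.07 ± 0.13 without replicate 4 (edgeR adjusted p = 4.29e-05). Dtx3l was at 27.4, 26, 34.9, 46.9 and 32.2 CPM at 24 h, higher than every 22 °C library, with a log2 change of 0.95 ± 0.17 (edgeR adjusted p = 0.000720) and 0.79 ± 0.15 without replicate 4 (edgeR adjusted p = 0.00151). These members had the lowest folds of all 38 in replicate 4 itself, 1.36 for Dhx58 and 1.58 for Dtx3l against the median of the other 4 libraries.

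Among RNA-binding and degrading proteins, 5 of 10 were higher. Ifit1, which binds RNA lacking the host cap methylation, was at 4.23, 4.2, 4, 4.26 and 2.89 CPM at 22 °C and 5.88, 6.57, 6.22, 14.5 and 6.53 CPM at 24 h. The groups did not overlap, and the log2 change was 1.01 ± 0.25 (edgeR adjusted p = 0.00813) and 0.66 without replicate 4 (edgeR adjusted p = 0.0175). Oasl1, which limits translation of Irf7, was at 1.18, 1.14, 1.01, 0.482 and 1.57 CPM at 22 °C and 2.83, 2.05, 2.1, 6.07 and 2.03 CPM at 24 h. Its groups did not overlap either, with a log2 change of 1.47 ± 0.36 (edgeR adjusted p = 0.00744) and 1.04 without replicate 4 (edgeR adjusted p = 0.0245). Oasl2 (1.11 ± 0.33), Oas1a (1.17 ± 0.38) and Oas3 (1.97 ± 0.64) passed with all libraries at edgeR adjusted p = 0.0237, 0.0342 and 0.0355 and did not pass without replicate 4. Oas1a and Oas3, at no more than 6.34 and 2.35 CPM in any BAT library, were the members nearest inside the threshold.

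Isg15, the ubiquitin-like modifier itself, was at 2.19, 2.83, 3.59, 2.89 and 2.45 CPM at 22 °C and 4.19, 3.03, 4.32, 15.8 and 4.81 CPM at 24 h. The lowest 24 h value lay within the 22 °C range, and the log2 change of 1.20 ± 0.38 (edgeR adjusted p = 0.0292) did not pass without replicate 4. Outside the threshold with all libraries were Trim30a and Herc6 (edgeR adjusted p = 0.0816 and 0.0822), Usp18 (0.91 ± 0.37) and Irf7 (0.92 ± 0.39). Irf7 was at 7.24, 6.43, 7.25, 32.9 and 6.29 CPM at 24 h, where 4 libraries sat in or beside the 22 °C range and 1 did not.

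Without replicate 4 the median change of the GTPases turned from positive to negative, though not every one of them fell. Gbp3 (-0.69, edgeR adjusted p = 0.00929) and Irgm1 (-0.53, edgeR adjusted p = 0.0191) were lower at 24 h than at 22 °C, as was the RNA sensor Ifih1 (-0.51, edgeR adjusted p = 0.0112). The median of the 5 GTPases was -0.53 without that library and 1.158 with it. Ifi47 was at 2.65 to 3.29 CPM in the other 4 libraries at 24 h, within its 22 °C range of 2.55 to 3.84 CPM. Gbp2 was at 26, 26.7, 26.4, 33.1 and 26.2 CPM at 22 °C and 14.6, 15, 24.1, 239 and 24.2 CPM at 24 h, and Igtp at 7.92, 10.1, 9.23, 154 and 12.9 CPM at 24 h. In each, 4 libraries at 24 h were lower than all 5 at 22 °C and replicate 4 was higher than all. The calls also moved with other libraries. The count was 4 without 22 °C replicate 2 and 5 without 22 °C replicate 3, and Isg15, Oas1a, Oas3 or Oasl2 also lost the call without 22 °C replicates 1, 4 or 5 or 24 h replicate 3.

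**Figure D3:**
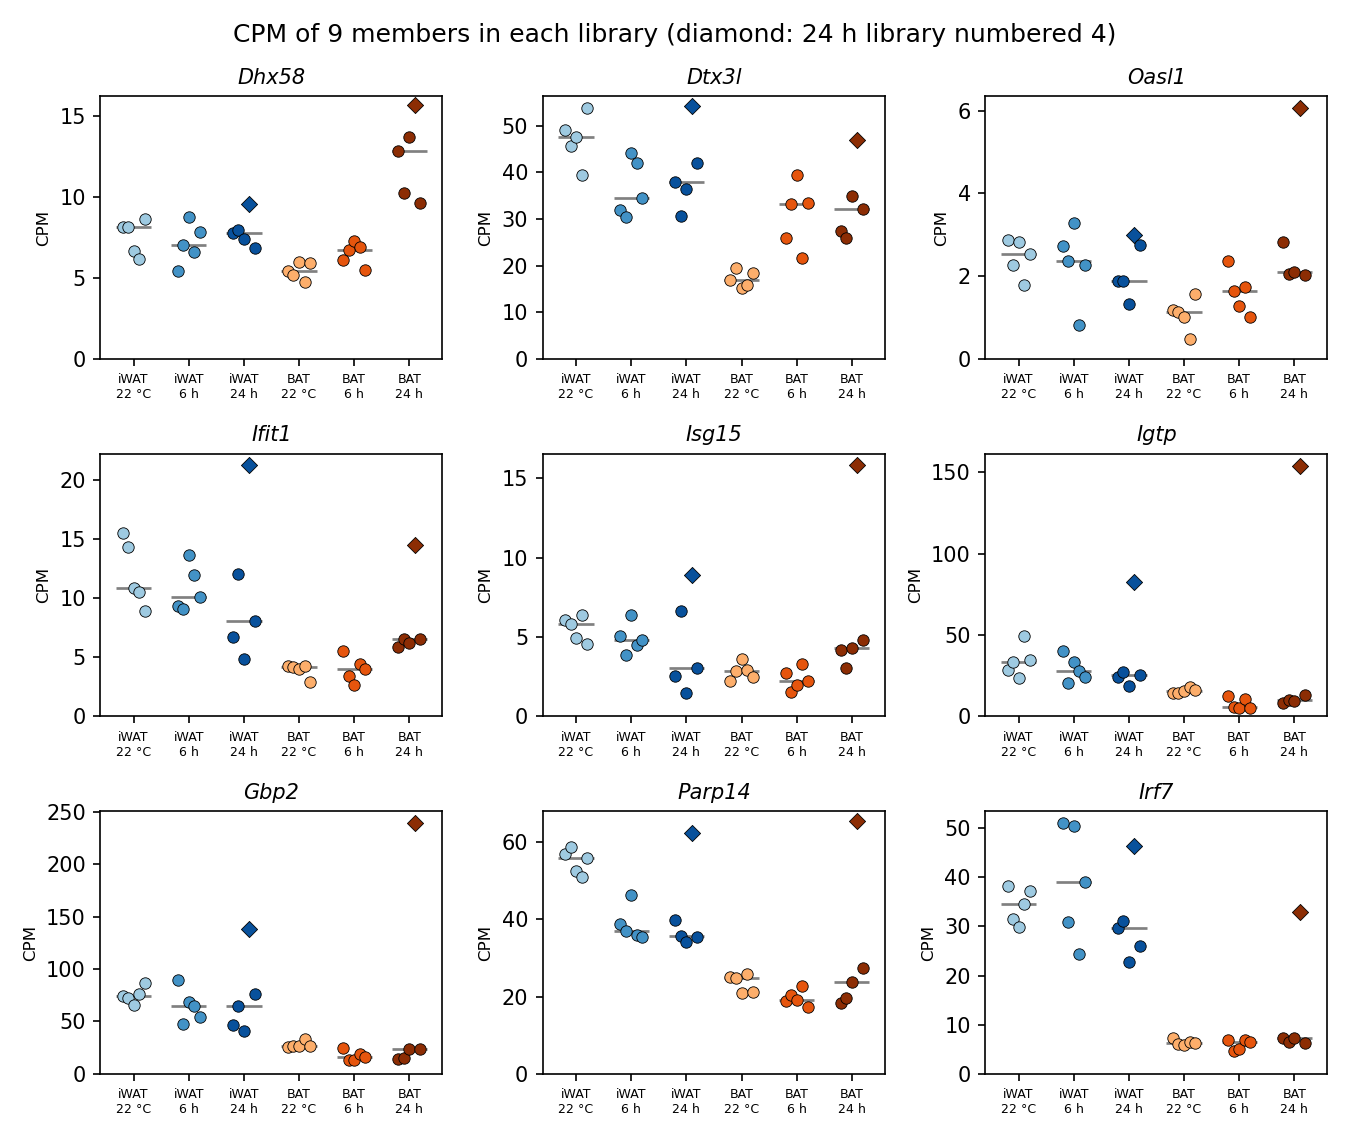
CPM (y axis, from 0) of 9 members in each library by tissue and condition (x axis); circles are single libraries, diamonds are the 24 h libraries numbered 4 and grey lines are group medians. All 5 BAT points at 24 h lie higher than the 22 °C points for Dhx58, Dtx3l, Oasl1 and Ifit1, while for Igtp and Gbp2 only the diamond does.

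Between 6 h and 24 h in BAT, 7 members were higher and 0 lower (6.6% of genes higher, 6.45% lower, below the members' share), namely Igtp (2.33), Isg15 (1.47), Oasl2 (1.10), Ifit3 (0.99), Ifit1 (0.99), Dhx58 (0.93) and Xaf1 (0.82, a pro-apoptotic inhibitor of XIAP). All 38 log2 changes were positive, with a median of 0.927, and 0.214 without replicate 4. Groups did not overlap for 3 higher and 0 lower members (4.53% and 4.55% of genes). Without that library 4 passed (1205 of 13175 genes in either direction), Dhx58 (0.83 ± 0.13), Isg15 (0.79 ± 0.22), Ifit1 (0.64 ± 0.18) and Xaf1 (0.40 ± 0.12). Isg15 was at 2.72, 1.51, 2, 3.29 and 2.22 CPM at 6 h, so 4 of those libraries lay lower than every 24 h library. The count was 4 without 6 h replicate 2, 3 without 6 h replicate 3 or 5, 12 without 24 h replicate 1 or 5 and 17 without 24 h replicate 2. These counts show how the calls moved, and the share of all genes called is not given for them. Usp18 and Ifit3b stood next outside at edgeR adjusted p = 0.0543 and 0.0565, and Igtp and Oasl2 were nearest inside at edgeR adjusted p = 0.0418 and 0.0392.

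**Figure D4:**
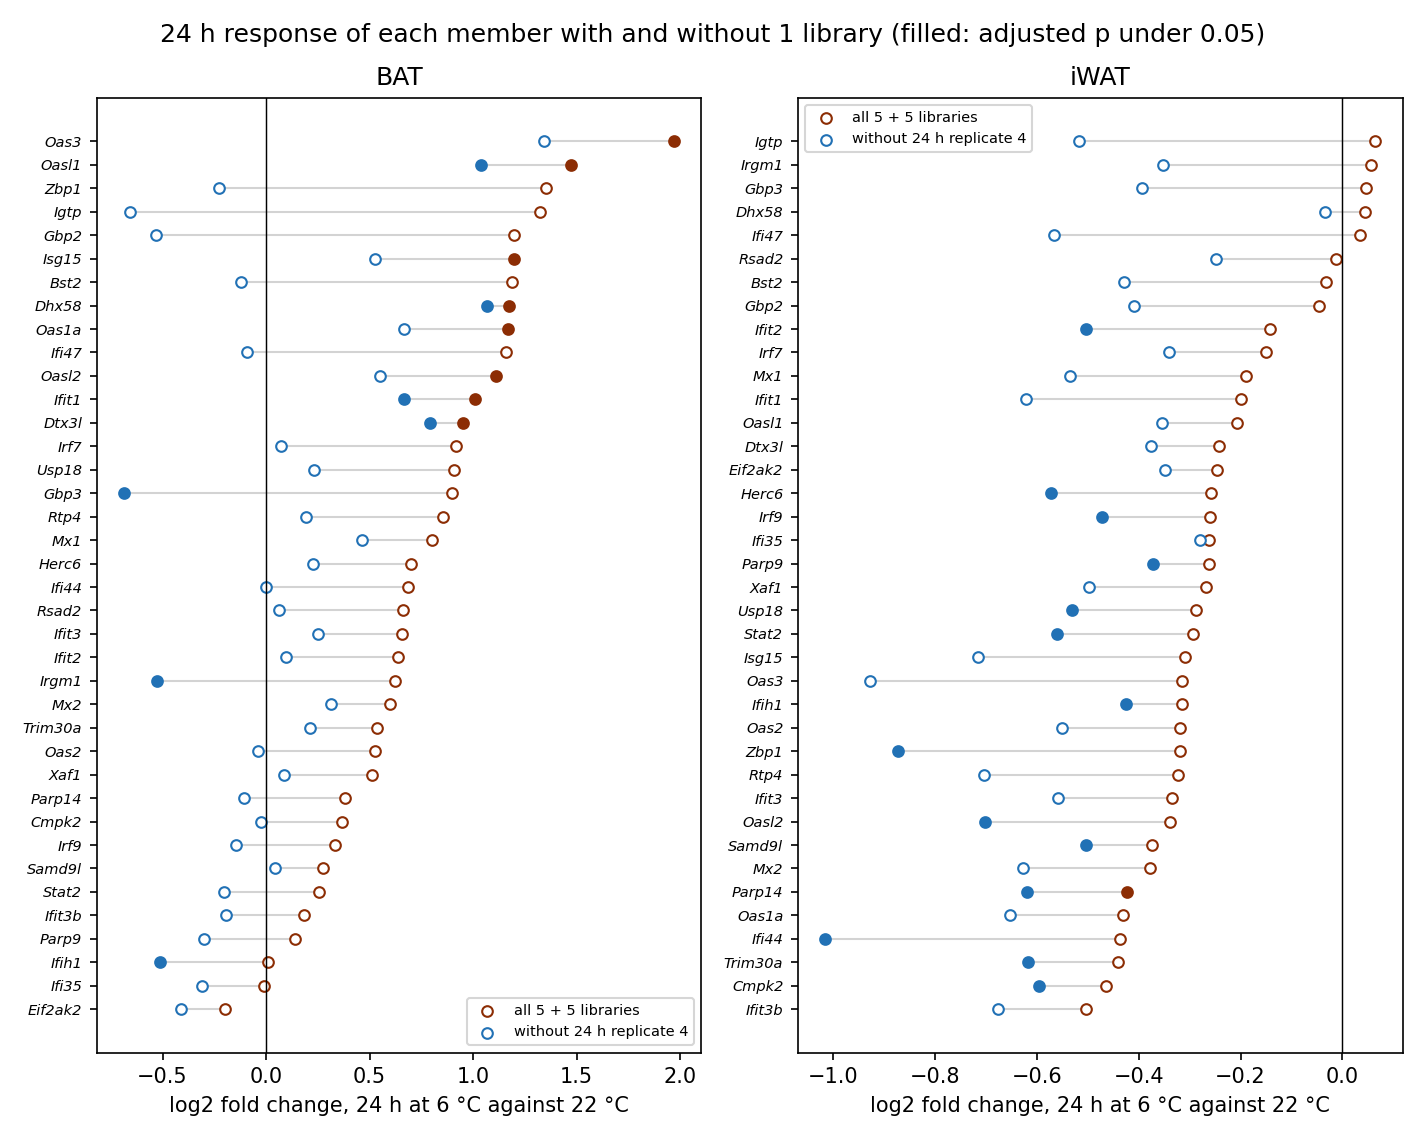
Log2 fold change (x axis) of each member (y axis) after 24 h at 6 °C against 22 °C in BAT (left) and iWAT (right), with all libraries (brown) and without 24 h replicate 4 (blue); filled points passed edgeR's test at an adjusted p under 0.05. In BAT 8 points are filled with all libraries and 7 without, of which 3 (Gbp3, Irgm1 and Ifih1) lie lower than 0; in iWAT the filled points go from 1 to 14.

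The depots differed in their response. The interaction of tissue and cold was positive, meaning a more positive change in BAT, for 1 member at 6 h and 6 members at 24 h, and negative for 0 (3.38% of genes positive and 6.03% negative at 6 h, 9.4% in either direction, 2.96% and 4.85% at 24 h). The members' share was near that of all genes at 6 h and above it at 24 h. At 6 h it was Dtx3l (1.21 ± 0.23, edgeR adjusted p = 0.00152), which in iWAT was at 49.2, 45.7, 47.5, 39.5 and 53.8 CPM at 22 °C and 31.9, 30.3, 44.3, 42.1 and 34.6 CPM at 6 h. At 24 h they were Oasl1 (1.67 ± 0.48), Oas1a (1.59 ± 0.48), Oasl2 (1.44 ± 0.44), Dtx3l (1.19 ± 0.23), Dhx58 (1.13 ± 0.20) and Trim30a (0.97 ± 0.28), with edgeR adjusted p from 0.000923 for Dhx58 to 0.0410 for Oasl2. Dhx58 in iWAT was at 8.15, 8.13, 6.66, 6.15 and 8.64 CPM at 22 °C and 7.76, 7.93, 7.38, 9.52 and 6.84 CPM at 24 h, groups that overlapped.

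Leaving out both libraries numbered 4 gave 7 members with a more positive change in BAT at 24 h, where 641 of 14171 genes were called in either direction. Of these, Dtx3l (1.17), Dhx58 (1.10), Oasl2 (1.25) and Trim30a (0.84) were called in both fits, and Ifit1 (1.29), Herc6 (0.80) and Parp14 (0.52) were gained. The median log2 difference was 0.979 with all libraries and 0.583 without that pair. Leaving out 1 library gave 14 without iWAT 24 h replicate 4 and 2 without BAT 24 h replicate 4, iWAT 22 °C replicate 1, iWAT 24 h replicate 1 or 3, or BAT 22 °C replicate 3. It gave 3 without iWAT 22 °C replicate 2 or iWAT 24 h replicate 2. It gave 4 without BAT 22 °C replicate 1, 2 or 4, and 5, with Oasl2 lost, without replicate 5 of iWAT at 22 °C, iWAT at 24 h or BAT at 22 °C. Oas1a was lost without BAT 24 h replicate 3. Dhx58 and Dtx3l kept the call whichever library was left out.

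The libraries numbered 4 were then described by role. In BAT, replicate 4 was the highest of the 5 libraries at 24 h for 38 of 38 members (14% of 11727 genes), the highest of all 15 BAT libraries for 38, and over 2-fold above the next library for 27 (1.36% of genes). Against the median of the other 4, the fold had a median of 3.07 and ran from 1.36 to 15.9. The 5 GTPases led with a median of 10.4, as Igtp reached 154 CPM (others 7.92 to 12.9), Gbp2 239 CPM (others 14.6 to 24.2), Gbp3 145 CPM (others 9.98 to 16.1), Irgm1 85.7 CPM (others 10.5 to 14.7) and Ifi47 22.9 CPM (others 2.65 to 3.29). Zbp1 (11.0-fold) and Bst2 (8.32-fold) were next outside that role. Medians were 3.12 for the sensors, 3.06 for the RNA-binding proteins, 2.88 for the transcription factors, 2.81 for ubiquitin-like modification and 2.07 for the Mx proteins. Irf7 was highest among the transcription factors at 4.82-fold, with Irf9 at 2.88-fold and Stat2 at 2.71-fold.

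In iWAT, replicate 4 was the highest of the 5 at 24 h for 37 members (14.9% of 11973 genes), with Ifi35 the exception, and over 2-fold above the next for 10 (0.326%). It was the highest of all 15 iWAT libraries for 27. The median fold was 1.91, from 1.01 for Ifi35 to 3.53 for Zbp1, and the GTPases again had the highest median of the 7 roles at 2.96. Across the 38 members the log2 folds in BAT and iWAT had Pearson's r = 0.705 and Spearman's rho = 0.702. That is a description over genes, and each fold comes from 1 library. The labels do not say whether these libraries numbered 4 came from the same mouse, so they may not be separate cases.

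**Figure D5:**
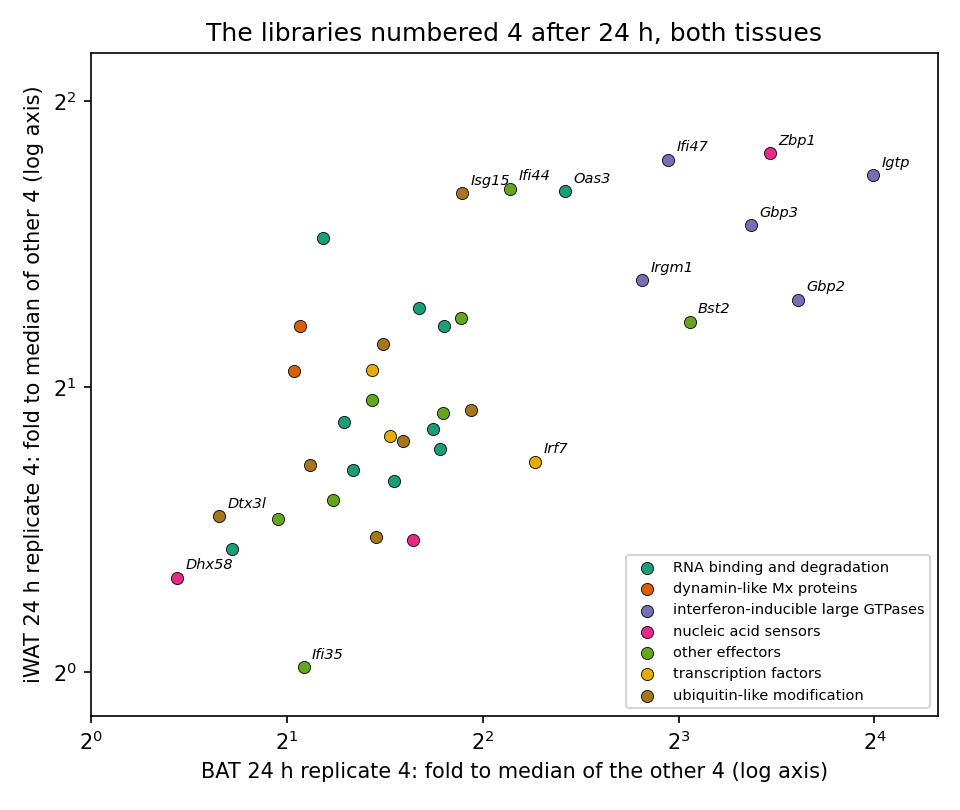
Fold of the 24 h library numbered 4 over the median of the other 4 libraries of its group, in BAT (x axis, log scale) and in iWAT (y axis, log scale), 1 point per member coloured by role. The large GTPases and Zbp1 lie at the upper right (Igtp at 15.9 and 3.35), and Dhx58 (1.36 and 1.26) and Dtx3l (1.58 and 1.46) at the lower left.

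Genes outside the list were high in the same libraries. Of the fixed list of further interferon-inducible genes, the median fold was 2.27 in BAT replicate 4 (34 of 55 genes over 2-fold above the median of the others) and 1.47 in iWAT replicate 4 (13 of 58). The share of all genes over 2-fold above that median was not computed. Counts by that measure, here and for the MHC lists, are therefore not set against all genes. Over 11322 genes expressed in both depots at 24 h, 33 were more than 2-fold above the next library in iWAT replicate 4 and 154 in BAT replicate 4, with 32 shared (97% of the first and 20.8% of the second). Of the 32, 9 are members. Others were the GTPases Gbp4 (237 CPM against 13.7 to 25.5 in BAT, 159 CPM against 24.6 to 29.1 in iWAT), Gbp10, Tgtp1 and Irgm2, and Top2a, a proliferation marker (2.86 CPM against 0.436 to 1.26 in BAT, 5.33 CPM against 0.649 to 1.82 in iWAT). Among fixed lists, MHC class I presentation had a median fold of 2.87 in BAT replicate 4 (13 of 16 genes over 2-fold above the median of the others) and 1.42 in iWAT, and MHC class II 2.36 (7 of 7) and 1.64. Adipocyte markers stood at 0.949 and 0.895.

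Immune cell markers moved with these libraries in part. Summed macrophage markers were 449 CPM in BAT 24 h replicate 4 against 217 to 301 CPM in the other 4, and 625 CPM in iWAT 24 h replicate 4 against 395 to 596 CPM. Summed T cell markers were 6.51 CPM against 2.37 to 2.87 CPM in BAT, and 9.79 CPM against 3.71 to 10.8 CPM in iWAT. Natural killer cell markers summed to 3.99 CPM against 0.419 to 1.42 CPM in BAT and 11.2 CPM against 3.42 to 8.72 CPM in iWAT. Plasmacytoid dendritic cell markers summed to 227 CPM against 98.9 to 142 CPM in BAT and 168 CPM against 116 to 147 CPM in iWAT, but that list holds the member Bst2, which alone was at 133 and 70 CPM in these libraries. Proliferation markers summed to 6.85 CPM against 1.94 to 3.36 CPM in BAT and 18.4 CPM against 4.12 to 7.81 CPM in iWAT. The part of these cell types in the high levels was not tested. Total counts were within the range of the other libraries.

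The signals and receptors upstream were measured in the same libraries. Of 21 interferon genes in the table, 17 had a count of 0 in all 30 libraries, which allows up to 3 counts, or 0.0732 to 0.118 CPM depending on the library. Ifnb1 had 1 count in total. Ifng, which encodes interferon gamma, had 0 to 12 counts per library, with 0 in BAT 24 h replicate 4 and 4 in iWAT 24 h replicate 4. At 22 °C it had 7, 2, 5, 6 and 6 counts in the iWAT libraries and 0, 0, 0, 1 and 0 in the BAT libraries. These are unscaled counts at or near that floor, and the difference between the depots was not tested. No ligand gene passed the filter, so none was tested. Of the 12 genes of the receptor and kinase list, 9 were tested in BAT and 11 in iWAT, and 5 of 11 were lower in BAT than in iWAT at 22 °C. Tyk2, a kinase of the type I receptor, was lower in each cold comparison with 22 °C, by -0.47 ± 0.10 at 6 h and -0.35 ± 0.10 at 24 h in iWAT and by -0.47 ± 0.10 and -0.31 ± 0.10 in BAT. At 24 h in BAT, 4 of 9 were lower and 0 higher, including Jak2 (-0.48 ± 0.12) and the receptor chain Ifnar1 (-0.25 ± 0.07), and 3 of 9 were lower without replicate 4, Jak2 (-0.50) and Tyk2 (-0.34) among them. In the 24 h libraries numbered 4 the list had a median fold of 0.968 in BAT and 1.05 in iWAT.

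Of nucleic acid sensing genes, 18 of 21 were tested in each depot, and BAT had 4 higher and 11 lower than iWAT at 22 °C. After 6 h, 1 was higher and 5 lower in iWAT and 2 were higher and 0 lower in BAT, and after 24 h it was 2 and 1 in iWAT and 2 and 2 in BAT, or 1 and 4 and 1 and 3 without the libraries numbered 4. Mavs, the mitochondrial adaptor of the RIG-I-like receptors that LGP2 regulates, was higher in all 4 comparisons with 22 °C, by 0.63 ± 0.13 and 0.74 ± 0.13 in iWAT and by 0.66 ± 0.09 and 0.62 ± 0.09 in BAT at 6 h and 24 h (0.76 and 0.63 at 24 h without the libraries numbered 4). Sting1, the adaptor of cytosolic DNA sensing, was lower in iWAT at 6 h (-0.61 ± 0.15) and 24 h (-0.51 ± 0.15, and -0.57 without replicate 4). Of 62 further interferon-inducible genes, 1 was higher and 11 lower of 62 tested in iWAT at 6 h, and 1 and 7 at 24 h, which became 1 and 22 without replicate 4. BAT had 3 higher and 50 lower than iWAT at 22 °C. In BAT it was 2 higher and 3 lower of 57 at 6 h, and 8 higher and 2 lower at 24 h, which became 3 higher and 12 lower without replicate 4. Of 9 further interferon regulatory factors, 1 was higher and 4 lower in BAT than in iWAT at 22 °C. Irf1 was lower in iWAT at 6 h (-0.41 ± 0.13), Irf2 was lower in iWAT at 24 h (-0.56 ± 0.14, and -0.65 without replicate 4) and in BAT at 6 h (-0.60 ± 0.14), and Irf4, also a regulator of thermogenic genes, was higher in iWAT at 24 h (3.25 ± 0.55, and 3.23 without replicate 4). MHC class I presentation had 0 higher and 1 lower of 16 in BAT at 6 h. It had the same counts at 24 h with all libraries and 0 higher and 5 lower without replicate 4. Class II had 0 of 7 and 1 lower of 7 in the same fits, and 0 of 7 at 6 h. In iWAT neither list had a call at either time with all libraries, and 3 of 16 and 2 of 7 were lower at 24 h without replicate 4.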

How the data were processed

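Gene counts and FPKM values (fragments per kilobase and per sequencing depth) were used as deposited by the authors. The submitters' processing notes name HISAT2, HTSeq and the build GRCm39, without versions or further detail, and the strand setting is not given in the sources used here. The deposited counts were analysed with edgeR 4.0.16 in R 4.3.3: filterByExpr (minimum count 10) chose the genes, TMM gave the scaling, and models were fitted by quasi-likelihood with the 15 libraries of a tissue (or all 30 for depots and response differences), with p-values adjusted by Benjamini-Hochberg over all genes tested, at 0.05. There were 11 comparisons. CPM values use TMM over all 30 libraries, and levels are log2(CPM + 1). Errors after ± are standard errors of log2 fold changes. Alternatives were DESeq2 1.42.0, limma 3.58.1 on log2(FPKM + 1) or log2(FPKM + 0.1) of the deposited FPKM, other scalings, filters and libraries in the fit, a replicate block and leaving out each library. DESeq2 gave no adjusted p for Igtp in 2 comparisons, which were left as missing. Fits were tested on simulated data. Depth limits the lowest members, Oas3 and Mx1. The members and lists were chosen with earlier results of these data known. Named were up to 8 called members with the largest changes per comparison, 18 fixed members, the 6 standing furthest apart in 1 library, up to 3 called genes per pathway list, and the 2 nearest each side of the threshold. Coordinates are those of the promoter table (GRCm38.p6), and gene overlaps come from the RefSeq table of that build, in which 16 of 38 members overlap another gene. Plots used matplotlib. Other cell type lists were counted in the same fits.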

Additional observations from a re-analysis of the deposited data

Results flagged for a closer look

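A library was singled out when it was the highest or lowest of its group of 5 and its gap to the nearest other exceeded the 95% limit of Dixon's ratio, which chance alone does in about 1 in 20 groups. BAT 24 h replicate 4 was singled out, always as the highest, for 29 members and for the mean log2 level of the list (4.71). Its GTPase values were 239 CPM for Gbp2, 154 CPM for Igtp, 145 CPM for Gbp3, 85.7 CPM for Irgm1 and 22.9 CPM for Ifi47. Its transcription factor values were 54 CPM for Irf9, 51.4 CPM for Stat2 and 32.9 CPM for Irf7. Among RNA-binding and degrading proteins it held 30.2 CPM of Ifit2, 22.4 CPM of Oasl2, 14.5 CPM of Ifit1, 12.3 CPM of Oas2 and 6.07 CPM of Oasl1. The sensors Ifih1 and Zbp1 stood at 25.6 and 11.7 CPM, and Mx2 at 2.56 CPM. Of the ubiquitin-like group, Parp14 was at 65.5 CPM, Parp9 at 52.2 CPM, Trim30a at 24 CPM, Herc6 at 19 CPM, Isg15 at 15.8 CPM and Usp18 at 15.6 CPM. The other effectors were Bst2 (133 CPM), Rsad2 (55.6 CPM), Rtp4 (24.8 CPM), Ifi35 (21.6 CPM), Xaf1 (20.9 CPM), Cmpk2 (20.4 CPM) and Ifi44 (11.2 CPM).

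iWAT 24 h replicate 4 was the highest in the same way for 13 members. These were Igtp (82.5 CPM), Bst2 (70 CPM), Irgm1 (68.9 CPM), Parp14 (62.3 CPM), Stat2 (47.2 CPM), Irf9 (39.8 CPM), Oasl2 (27 CPM), Ifi47 (24.8 CPM), Zbp1 (18.5 CPM), Oas2 (17.3 CPM), Usp18 (11.1 CPM), Ifi44 (8.62 CPM) and Oas3 (2.68 CPM).

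In the other groups 7 values were singled out. In BAT at 22 °C, Gbp2 (33.1 CPM) and Ifi35 (15.8 CPM) were high in replicate 4, Zbp1 (1.8 CPM) was high and Irgm1 (14 CPM) low in replicate 3, and Ifit1 (2.89 CPM) was low in replicate 5. In BAT at 6 h, Stat2 (23 CPM) was high in replicate 4 and Zbp1 (0.103 CPM) low in replicate 3.

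The cold response differed between the depots by edgeR's interaction test, with a more positive log2 change in BAT. The difference was 1.21 for Dtx3l at 6 h. At 24 h it was 1.67 for Oasl1, 1.59 for Oas1a, 1.44 for Oasl2, 1.19 for Dtx3l, 1.13 for Dhx58 and 0.97 for Trim30a.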

How the results depend on the processing

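Counts of members called moved by over 1.5 times under these settings, and the cause was not tested. For iWAT at 6 h against 22 °C (3 as reported), upper-quartile scaling gave 5, limma on FPKM gave 13 with a pseudocount of 1 and 12 with 0.1, all 30 libraries in the fit gave 1 and the 2 groups alone gave 5. For iWAT at 24 h (1), upper-quartile scaling gave 3, limma on FPKM gave 8 with either pseudocount, and no filter, the replicate block, all 30 libraries or the 2 groups alone each gave 0. For BAT at 6 h (1), the replicate block gave 3 and the 2 groups alone 10. For BAT at 24 h (8), limma on FPKM gave 4 with either pseudocount and the 2 groups alone 5. For BAT at 24 h against 6 h (7), DESeq2 and all 30 libraries each gave 13, limma on FPKM 4 with either pseudocount and the 2 groups alone 3. For the depots after 24 h (16), limma on FPKM gave 30 with either pseudocount, as did leaving out both libraries numbered 4, which was chosen after seeing the data. For the 6 h response difference (1), limma on FPKM gave 3 and 2. In iWAT, upper-quartile scaling moved the median of all genes to -0.101 at 6 h and -0.103 at 24 h, and FPKM with a pseudocount of 1 to -0.152 and -0.116.

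Leaving out 1 library gave 2 to 6 members called in iWAT at 6 h and 0 to 14 at 24 h. It gave 4 to 10 in BAT at 24 h, 3 to 17 at 24 h against 6 h, 31 to 35 for the depots at 22 °C, 28 to 32 after 6 h, 13 to 32 after 24 h and 2 to 14 for the 24 h response difference. Among these fits, the share of all genes called is given only for some without the 24 h libraries numbered 4. The other counts, here and above, show how calls moved and do not set the members against all genes. Of the values of named genes that passed, 503 kept the call and 91 lost it on leaving out a library, and 0 changed sign. Replicate numbers were not taken to pair the libraries, since the labels do not say so and correlations of same-numbered deviations were over 0.1 in every pair for no 2 groups. Between iWAT and BAT at 24 h they ran from 0.089 to 0.472, and each of the 5 libraries correlated best with its own number. Without the members and the pathway genes they ran from 0.086 to 0.381, and again all 5 correlated best with their own number. Whether these libraries share a mouse cannot be told. The tests between depots and of response differences at 24 h treat them as independent. With the replicate number as a block, Parp14 in iWAT at 24 h, Oas1a and Oas3 in BAT at 24 h, and Igtp in BAT at 24 h against 6 h no longer passed (edgeR adjusted p = 0.0531, 0.0626, 0.0688 and 0.132). With a filter of 1 CPM in 5 libraries, 35 members were tested in BAT. Depth limits Oas3, which is under 1 CPM on average, and the ligands.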
